A study of Schmidtea mediterranea with 60 samples.

Results

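Control tails of the planarian Schmidtea mediterranea, sampled at 2dpa and at 0dpa (dpa, days post amputation), are described here across all measured transcripts. They are the tail libraries whose labels give the double-stranded RNA (dsRNA) pair egfp with egfp and one of those times, 3 at 2dpa and 3 at 0dpa, so 6 of the 60 libraries of the series and 6 of its 36 tail libraries. The dsRNA lowers a transcript of matching sequence by RNA interference (RNAi), and egfp codes for a jellyfish protein, so both of these groups carry a control RNAi treatment and neither is untreated. Further sets of libraries were set beside them. These were opa1 RNAi tails (opa1 with egfp) and combined RNAi tails (opa1 with drp1), each with 3 libraries at 2dpa and 3 at 0dpa, control tails at 6hpa (hours post amputation) and 1dpa with 3 libraries each, and control whole bodies (egfp alone), with 3 libraries at 1dpa and 3 at a time labelled homo, a word the labels leave unexplained. Neither strain nor age is labelled. Nor is it stated that the 3 libraries of a group came from different animals, so the p-values cover the variation among these libraries alone, and that variation may be technical.

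Planarians are freshwater flatworms that regrow missing body parts from small fragments. After a cut, wound-response genes come on first, stem cells called neoblasts then divide, and their descendants build a bud of new tissue, the blastema, at the wound. A tail piece has to make a new head, so transcripts of positional control, of dividing cells and of differentiating cell types are all known to move in the days after amputation. OPA1 fuses inner mitochondrial membranes and DRP1 divides mitochondria. The control tails give the values by time after amputation beside which those knockdowns can be read. No tails left uncut for the same time are labelled, so amputation cannot be told apart from other changes between the sampling times.

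The values are the authors' scaled expression values per transcript feature, which are neither counts nor corrected for transcript length, so a feature's level is compared between libraries. Where features are ordered by level below, the order is that of the scaled values and not of abundance per length, which is given in TPM where it is known. Features carry SMED identifiers only. The files do not pair them with gene names, so no feature is given a name, a role or a sequence here, and the tissue label could not be checked against marker genes. Of 36035 features, 31991 were above 0 in at least 1 of the 6 libraries, and 20681 reached 10 in at least 3 of the 36 tail libraries and were tested. The summed scaled values were 8588504 to 8824033 in the 2dpa libraries and 9766372 to 10417076 in the 0dpa libraries, and 1 feature, SMED30032887, held 7.89% to 10% of the sum at 2dpa and 12.6% to 15.1% at 0dpa. The read depth of these libraries is unknown, so no counting interval can be given. On the log2 scale, 2dpa libraries correlated with each other across features at r = 0.973 to 0.977, with 0dpa libraries at 0.937 to 0.959, with 1dpa libraries at 0.961 to 0.968 and with 6hpa libraries at 0.878 to 0.919. The 6hpa libraries stood apart from the rest also in the share of SMED30032887, at 21.2% to 29.2%.

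The question of the comparison was which transcripts differ 2 days after amputation. At 2dpa, 2007 features were higher and 1722 lower than at 0dpa by limma with Benjamini-Hochberg adjustment (adjusted p under 0.05, called below), which is 9.70% and 8.33% of the 20681 tested and 18.0% together. The median log2 fold change was 0.78 among called rises and -0.61 among called falls, beside 0.07 over all features tested. These sizes depended on the level of the features and are given by level below. More than 2-fold, 696 features rose (3.37% of those tested) and 275 fell (1.33%). More than 4-fold the numbers were 230 and 46, more than 8-fold 62 and 12, and more than 16-fold 22 and 4. In bulk tissue, more cells of a type and more RNA per cell cannot be told apart, and the same holds for fewer cells and less RNA. Because 1 was added to every value before taking log2, fold changes of low features come out too small.

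Every 2dpa library lay above every 0dpa library for 4487 features (21.7%) and below for 3455 (16.7%). Of the called features, 1941 of the rises and 1665 of the falls had groups that did not overlap in this way. The split of calls between rises and falls depended on the scaling. It was 53.8% rises as deposited, 43.8% after TMM rescaling (1678 of 3833 calls), 75.1% when the feature with the highest values was left out of equalised sums, and 93.9% in the authors' TPM table (4839 rises and 313 falls), where the median of all features was 0.35 higher at 2dpa. Without the 2nd of the 2dpa libraries the number of calls was 2268.

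**Figure D1:**
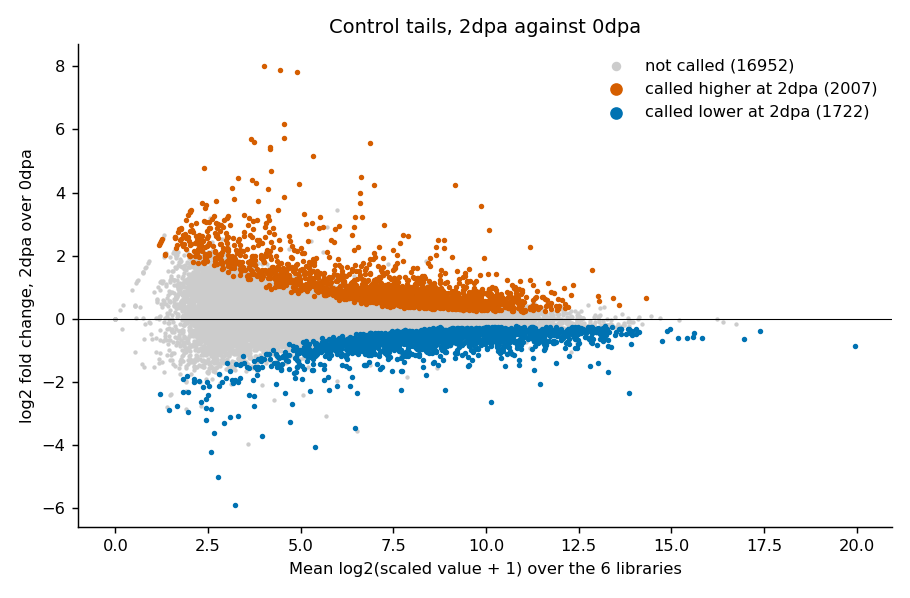
Each point is a feature of the control tails, with its mean log2(scaled value + 1) over the 6 libraries on the horizontal axis and its log2 fold change, 2dpa over 0dpa, on the vertical axis; coloured points are the 2007 called higher and the 1722 called lower. The largest rises lie among low and middle levels, and the features with the highest scaled values lie mostly below 0.

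The level of a feature went with the direction of its change among the features tested. These were divided into 5 equal classes by mean log2 level over all tail libraries. The share called higher was 4.83%, 6.17%, 8.85%, 13.7% and 14.9% going from the lowest to the highest class. The share called lower was 0.822%, 2.32%, 6.24%, 10.6% and 21.7%. A feature was tested if at least 3 tail libraries of any group reached 10, and most of these libraries were sampled after 0dpa. Low features can thus enter by being high after amputation. Whether this favoured rises in the low classes was not tested. The precision moved with the level, since the median standard error of the log2 fold change was 0.69 in the lowest class and 0.12 in the highest. In the lowest class all 200 called rises and all 34 called falls were over 2-fold, and in the highest class 41 of 618 rises and 45 of 897 falls were. From the lowest to the highest class, the median change among called rises was 2.33, 1.48, 0.92, 0.64 and 0.52. Among called falls it was -2.13, -1.33, -0.84, -0.62 and -0.49. Only called features enter these medians, and at a like standard error the test needs about the same size of a rise as of a fall. The similar sizes within a class therefore follow at least in part from the calling rule. Among the 100 features with the highest scaled values, 52 were called lower and 5 higher, with a median log2 fold change of -0.30. That direction also moves with the scaling described above.

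SMED30032887, the feature with the highest scaled values, had 729915, 695923 and 861964 at 2dpa, against 1573515, 1234440 and 1373912 at 0dpa. All 3 of its 2dpa libraries were lower, and it fell by 0.87 on the log2 scale (SE 0.23, limma adjusted p = 0.00621), a call that was lost without the filter on low values (adjusted p = 0.0570). SMED30007704 had 105533, 117665 and 88047 at 2dpa, against 156365, 160254 and 161209 at 0dpa, a fall of -0.63 (SE 0.15, adjusted p = 0.00334), which on the TPM table was -0.27 with adjusted p = 0.291. Per length it averaged 7316 ± 1125 TPM at 2dpa and 8753 ± 446 TPM at 0dpa (SD, n = 3 each). SMED30018637 had 151699, 160790 and 141116 at 2dpa, against 203573, 181953 and 213560 at 0dpa. Its groups did not overlap, and its fall of -0.40 (adjusted p = 0.0403) was not called after leaving out any one of the 6 libraries except the 2nd of 0dpa. On the TPM table it was -0.04 (adjusted p = 0.808), and with equalised sums -0.28 (0.0956). SMED30013735 had 103453, 109597 and 98829 at 2dpa, against 114655, 117109 and 118804 at 0dpa, and its difference of -0.17 did not pass the test (adjusted p = 0.296) and was 0.19 on the TPM table.

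The rise with the smallest p belonged to SMED30026864. It was listed at 237, 247 and 292 in the 2dpa libraries and at 0 in all 3 0dpa libraries. At 6hpa it was again 0 in all 3, and at 1dpa it was 52.6 to 70.5, so it was listed above 0 only at the 2 later times in control tails. The difference had a limma adjusted p of 6.38e-15, and since the 0dpa group is at 0 its size depends on the pseudocount and is not ranked among the other rises. Between 1dpa and 2dpa it was still higher at 2dpa by 2.12 (SE 0.45, adjusted p = 0.00239). It moved in the same direction in tissue that shares no library with these tails, at 38.7 to 86.5 at 2dpa against 0 in all 3 0dpa libraries in opa1 RNAi tails, and at 101 to 155 against 0 to 0.932 in combined RNAi tails. In control whole bodies it was 7.59 to 11.8 CPM (counts scaled by the library total) at 1dpa, against 0.0867 to 0.613 at homo (log2 change 4.52, edgeR adjusted p = 6.58e-11).

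SMED30017639 had 568, 383 and 173 at 2dpa, against 0, 1.90 and 0 at 0dpa. SMED30028552 had 797, 454 and 245 at 2dpa, against 1.08, 2.78 and 0. SMED30007501 had 1365, 833 and 449 at 2dpa, against 8.11, 40.5 and 11.9. In each of these 3 features the 1st 2dpa library was the highest and the 3rd the lowest, and every 2dpa value was still far above every 0dpa value. Their log2 fold changes were 7.88 (SE 0.66, limma adjusted p = 8.31e-11), 7.81 (SE 0.60, 1.08e-11) and 5.56 (SE 0.59, 1.96e-08). All 3 passed through intermediate means, and those of SMED30007501, in the order of the 4 times, were 20.2, 38.6, 330 and 882. In SMED30017639 the same means were 0.635, 8.85, 74.4 and 375.

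The 1st 2dpa library was the highest for 30 of the 62 rises over 8-fold, the 2nd for 15 and the 3rd for 17. Over all tested features the shares were 28.9%, 38.6% and 32.5%. Of the 23 such rises whose 2dpa libraries spread over more than 2-fold, the 1st library was the highest in 17. For the 696 rises over 2-fold the 1st was highest in 176 (25.3%), the 2nd in 341 (49.0%) and the 3rd in 179 (25.7%). The 2dpa libraries thus differed in both lists, with the 1st highest most often among the largest rises and the 2nd most often among all rises over 2-fold, and the cause was not tested.

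SMED30022734 had 333, 144 and 161 at 2dpa, against 0, 3.68 and 3.55 at 0dpa (log2 fold change 6.16, SE 0.65, limma adjusted p = 1.5e-08). It was already 23.5 to 95.5 at 6hpa and 41.0 to 116 at 1dpa, so its early values overlapped with each other and lay below those of 2dpa. SMED30027157 had 129, 142 and 86.5 at 2dpa, against 4.10, 2.99 and 0 at 0dpa (5.43, SE 0.66, adjusted p = 2.03e-07). Its 6hpa and 1dpa libraries were spread widely, from 13.1 to 67.3 and from 13.0 to 94.9. In opa1 RNAi tails it was 5.05 to 10.1 at 2dpa and 0 to 2.26 at 0dpa, a change of 1.89 that did not pass the test (adjusted p = 0.0585). The difference from control tails was not called (adjusted p = 0.323).

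SMED30020397 had 198, 78.1 and 99.7 at 2dpa, against 0, 3.69 and 3.62 at 0dpa (5.39, SE 0.64, limma adjusted p = 1.8e-07). Its 1dpa libraries, at 69.6 to 75.4, were already close to the 2 lower 2dpa libraries. SMED30010418 had 145, 203 and 168 at 2dpa, against 0, 32.1 and 0 at 0dpa. The 3 higher values are all from 2dpa, but 1 of the 0dpa libraries was not low. The log2 fold change was 5.74 with a standard error of 1.56 (adjusted p = 0.00851). That error is estimated over all tail groups, and others were spread as well. At 0dpa the feature ran from 0 to 125 in opa1 RNAi tails and from 0 to 135 in combined RNAi tails. Without the 1st or the 3rd 0dpa library the adjusted p was 0.0572 or 0.0586.

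Per length, these rises were not the same in abundance. In the TPM table, SMED30020397 averaged 149 ± 75.1 TPM at 2dpa, SMED30017639 139 ± 73.0, SMED30022734 132 ± 64.0 and SMED30007501 128 ± 66.0 (SD, n = 3 each), 4 levels that do not differ beyond their spread. SMED30026864 was below them at 52.3 ± 5.71 TPM, SMED30027157 lower again at 11.2 ± 2.84, and SMED30010418 lowest at 3.17 ± 0.581. At 0dpa all 7 averaged between 0 and 2.32 TPM. SMED30028552 is not in that table.

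**Figure D2:**
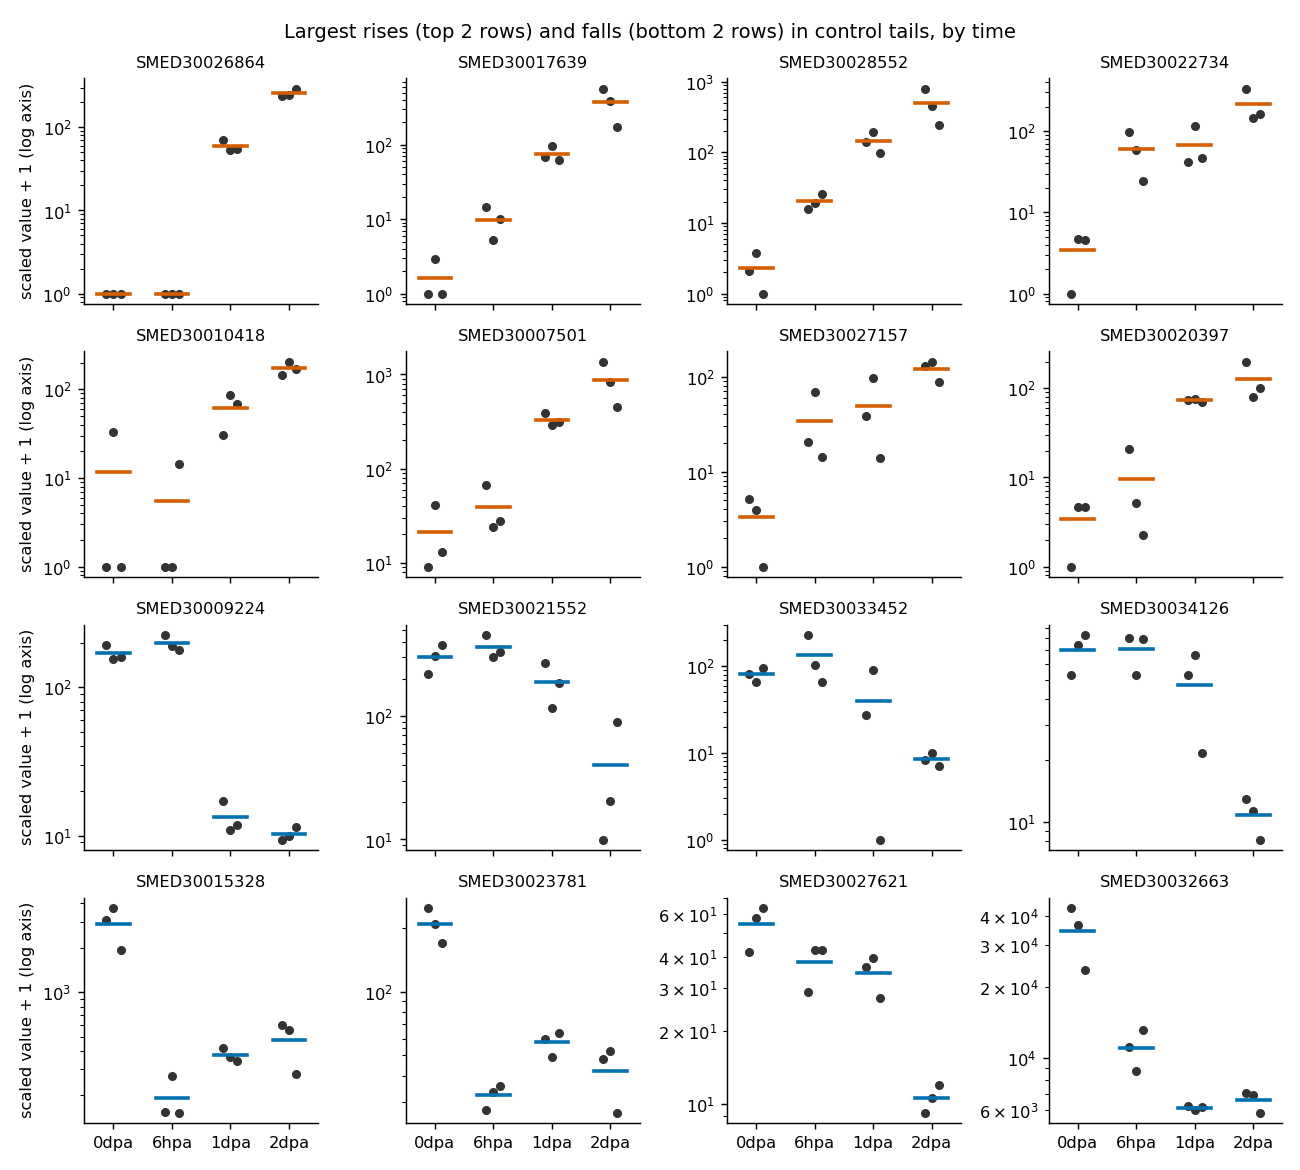
Each panel is 1 feature of the control tails, with the time of sampling on the horizontal axis and the scaled value plus 1 on a logarithmic vertical axis; points are the 3 libraries of a time and bars their means. The top panels show the 8 largest rises and the bottom panels the 8 largest falls under a rule of level and overlap. The rule keeps called features whose groups do not overlap and whose log2 level averages 4 or more, so some larger falls are missing. The changes differ in when they happened: SMED30026864 was at 0 until 6hpa, and SMED30009224 was still high at 6hpa.

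The 4 features with the highest scaled values among the rises over 2-fold took different courses. SMED30020058 had 11595, 13560 and 12650 at 2dpa, against 3756, 4656 and 4603 at 0dpa. The groups were far apart, with a log2 fold change of 1.54 (SE 0.12, limma adjusted p = 8.25e-12). Its means over the 4 times were 4338, 2875, 11832 and 12602, and 2dpa against 1dpa gave 0.09 (adjusted p = 0.838). Per length it stood at 368 ± 32.8 TPM at 2dpa and 99.0 ± 14.8 TPM at 0dpa (SD, n = 3 each).

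SMED30007406 had a similar course. It had 4924, 5607 and 4113 at 2dpa, against 1829, 2497 and 2342 at 0dpa (1.14, SE 0.21, limma adjusted p = 0.000238), and its mean at 6hpa was lower than at both, at 609 ± 159 (SD, n = 3). SMED30025388 took another course. It had 8209, 7194 and 7400 at 2dpa, against 4070, 3863 and 2963 at 0dpa (1.08, SE 0.20, adjusted p = 0.000142), with means of 3632, 7861, 3039 and 7601 over the same times. It was thus high at 6hpa and at 2dpa and low between them, and 2dpa stood above 1dpa by 1.33 (adjusted p = 3.6e-05).

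SMED30030464 had 7755, 4512 and 3844 at 2dpa, against 750, 2842 and 546 at 0dpa. The 2nd 0dpa library was about as high as some 1dpa libraries, at 2329 to 2913, and the groups did not overlap (2.28, SE 0.46, limma adjusted p = 0.000501). The rises with the smallest p after SMED30026864 were SMED30034500 and SMED30009611. SMED30034500 had 306, 320 and 305 at 2dpa, against 19.8, 54.4 and 30.2 at 0dpa (3.24, SE 0.19, adjusted p = 3.12e-14), and it was highest at 1dpa, with a mean of 510. SMED30009611 had 1047, 1056 and 964 at 2dpa, against 202, 255 and 197 at 0dpa (2.23, SE 0.14, adjusted p = 5.25e-14), and its means at 1dpa and 2dpa were 994 and 1022.

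The fall with the smallest p, SMED30009224, had 8.40, 9.0 and 10.4 at 2dpa, against 193, 154 and 160 at 0dpa (-4.05, SE 0.30, limma adjusted p = 7.27e-12). It was 177 to 225 at 6hpa and 9.97 to 16.2 at 1dpa, so its low level at 2dpa was already reached a day earlier. In opa1 RNAi tails the change was -3.46 and in combined RNAi tails -3.22. In control whole bodies the direction was the other way, with 3.17 at 1dpa against homo (edgeR adjusted p = 2.63e-05), at 3.52 to 6.70 CPM at 1dpa and 0.230 to 1.21 at homo.

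SMED30015328 had 602, 550 and 279 at 2dpa, against 3080, 3730 and 1925 at 0dpa (-2.63, SE 0.26, limma adjusted p = 4.35e-09). SMED30023781 had 46.8, 51.3 and 25.7 at 2dpa, against 250, 210 and 170 at 0dpa (-2.36, SE 0.27, adjusted p = 5.97e-08). Both were lowest at 6hpa, with means of 191 and 31.2. SMED30032663, with the highest scaled values of these falls, had 7066, 6943 and 5832 at 2dpa, against 43287, 36576 and 23640 at 0dpa (-2.34, SE 0.28, adjusted p = 2.26e-07). Its 1dpa libraries, at 5970 to 6196, overlapped with those of 2dpa.

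SMED30027621 fell late. It had 8.25, 9.57 and 11 at 2dpa, against 41.2, 56.8 and 62.7 at 0dpa (-2.35, SE 0.28, limma adjusted p = 1.73e-07), with a mean of 37.2 at 6hpa and 33.4 at 1dpa. It was lower at 2dpa than at 1dpa by -1.69 (adjusted p = 0.000175), and in opa1 RNAi tails it had 33.0 to 48.1 at 2dpa, with a difference of the changes that was not called (adjusted p = 0.113). For 3 other falls the change over the last day did not pass the test, with adjusted p of 0.109, 0.0797 and 0.881 in the order below. SMED30034126 had 12, 10.3 and 7.15 at 2dpa, against 51.6, 73.1 and 82.2 at 0dpa (-2.70, SE 0.72, adjusted p = 0.00724). SMED30021552 had 8.98, 19.5 and 89.5 at 2dpa, against 218, 307 and 374 at 0dpa (-3.47, SE 0.93, adjusted p = 0.00768), and its 2dpa libraries were spread widely. Without the 1st 2dpa library its adjusted p was 0.0661. SMED30033452 had 7.41, 8.95 and 6.04 at 2dpa, against 80.7, 65.3 and 95.2 at 0dpa. Its groups were apart, but its libraries at other times spread from 0 to 230, the standard error was 1.09 and the adjusted p of 0.0335 rose to between 0.0530 and 0.0936 when any 1 of the 6 libraries was left out.

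SMED30029159 had 4937, 4773 and 5756 at 2dpa, against 13710, 13780 and 13273 at 0dpa (-1.40, SE 0.12, limma adjusted p = 9.62e-11). Its 3 libraries at 0dpa agreed closely, and it was still 12769 to 18793 at 6hpa. SMED30027156 had 426, 430 and 444 at 2dpa, against 1297, 1180 and 1174 at 0dpa (-1.49, SE 0.12, adjusted p = 1.42e-11). SMED30011970 had 203, 143 and 201 at 2dpa, against 644, 575 and 654 at 0dpa (-1.78, SE 0.14, adjusted p = 2.58e-11), and both of these declined step by step, with means of 1217, 832, 683 and 433 for the one and 624, 394, 328 and 182 for the other over the 4 times. SMED30027845 had 4687, 5080 and 7285 at 2dpa, against 34009, 15235 and 10947 at 0dpa (-1.68, SE 0.43, adjusted p = 0.00568), and without the 1st and highest 0dpa library its adjusted p was 0.0762. SMED30028565 had 5159, 4970 and 3043 at 2dpa, against 9841, 13396 and 13204 at 0dpa (-1.49, SE 0.45, adjusted p = 0.0188). Its adjusted p was 0.0966 without the 3rd 2dpa library, and 0.0522 and 0.0629 without the 2nd and the 3rd 0dpa library.

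Among the tested features, 29 were listed at 0 in all 3 0dpa libraries, of which 6 were called, and 14 at 0 in all 3 2dpa libraries, of which 2 were called. No fold is given for them against a group at 0. Besides SMED30026864, the 6 were SMED30004187 with 160, 19.9 and 4.95 at 2dpa, SMED30012901 with 12.6, 13.4 and 0, SMED30012982 with 3.69, 4.17 and 5.86, SMED30008724 with 2.93, 3.83 and 5.80, and SMED30016085 with 4.51, 6.31 and 2.59. Of the 6, only SMED30026864 was above 10 in all 3 2dpa libraries. SMED30012901, above 0 in 2 libraries, was not called without any one of the 2dpa or 0dpa libraries except the 3rd of 2dpa, with adjusted p from 0.0507 to 0.185. In opa1 RNAi tails at 2dpa SMED30012982 had 21.3 to 24.6. The 2 that were at 0 at 2dpa were SMED30026916, with 8.61, 5.56 and 5.48 at 0dpa, and SMED30034190, with 12.1, 4.86 and 0.907 at 0dpa. For SMED30034190 the adjusted p of 0.0363 was 0.0783 to 0.213 without each of 5 of the 6 libraries.

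The course of the changes was followed over the 4 times. The control comparisons at 6hpa and at 1dpa share the 0dpa libraries with that at 2dpa, so their values are given side by side and say nothing of agreement. The 696 rises over 2-fold had a median log2 change from 0dpa of 0.30 at 6hpa, 1.09 at 1dpa and 1.62 at 2dpa, and the 275 falls -0.37, -0.82 and -1.30. Of the 696, 519 had their highest mean at 2dpa, 75 at 1dpa and 102 at 6hpa, and of the 275 falls 231 had their lowest mean at 2dpa, 29 at 1dpa and 15 at 6hpa. Both sets were selected at 2dpa, which favours that time. Of the rises, 274 (39.4%) had their lowest mean at 6hpa, beside 47.1% of all features tested.

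Both lists were selected on the same 2dpa and 0dpa libraries, so the direction of their summed values between these times follows from the selection. Only the sizes are given here. The 696 rises held 1.72% to 1.88% of a library's summed values at 2dpa, against 0.498% to 0.650% at 0dpa, and the 275 falls held 0.714% to 0.756% at 2dpa, against 1.59% to 2.01% at 0dpa. Over all 4 times, the share of the rises averaged 0.560%, 0.585%, 1.32% and 1.82%. The share of the falls averaged 1.84%, 1.33%, 0.959% and 0.728% at the same times. The 6hpa share of the rises was thus close to that at 0dpa, and most of the gain in share lay between 6hpa and 1dpa. A share depends on the library sum, which was 11918512 to 14472026 at 6hpa and 9766372 to 10417076 at 0dpa. Shares at 6hpa are thus of a larger total. Feature by feature, the median log2 change of the rises from 0dpa to 6hpa was 0.30, as given above. A comparison of 1dpa against 6hpa shares no library with 2dpa against 0dpa, but it shares the estimate of spread per feature. It was added after the others. In it 312 of the 696 rises were called higher and 104 lower, beside 31.1% and 22.0% of all features tested, and 10 of the 275 falls were called higher and 106 lower. Their medians were 0.83 for the rises and -0.46 for the falls, beside 0.24 for all features.

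**Figure D3:**
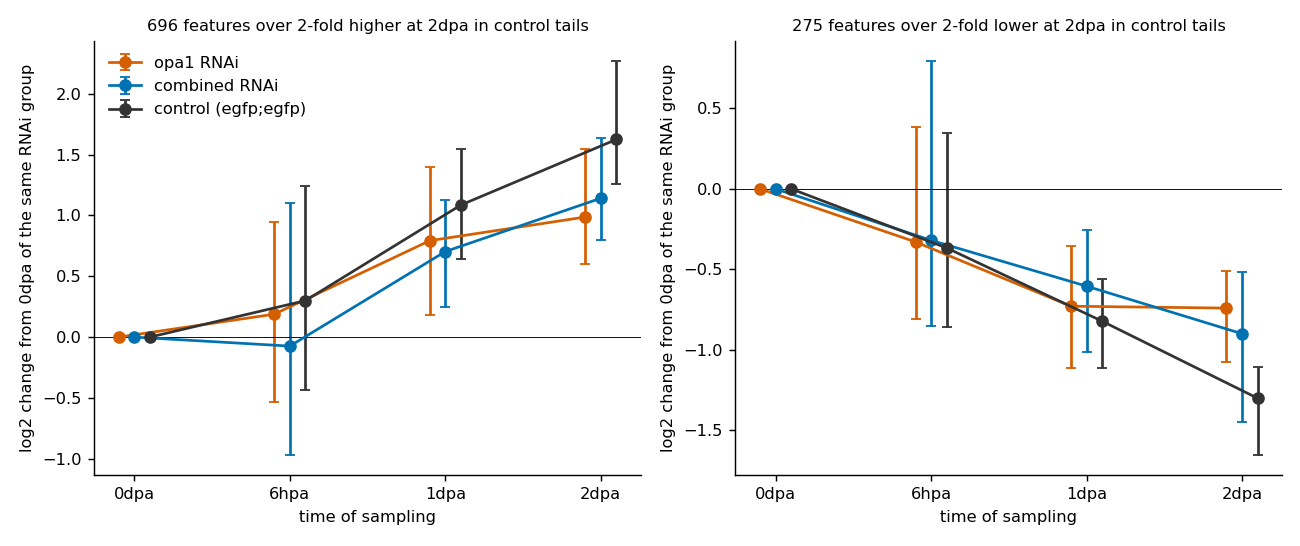
The median log2 change from 0dpa of the same RNAi group is plotted at each time of sampling for the 696 rises (left) and the 275 falls (right) of control tails, with bars from the lower to the upper quartile of the features. In control tails the median of the rises climbed to 1.62; at 2dpa it was 0.99 in opa1 RNAi tails and 1.14 in combined RNAi tails, and the features were selected in the control tails.

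The last day was compared directly. At 2dpa against 1dpa, 1123 features were called, 832 higher (4.02%) and 291 lower (1.41%), of which 378 (1.83%) and 44 (0.213%) were over 2-fold. Without the 3rd 1dpa library the number of calls was 449, without the 1st or the 3rd 2dpa library 728 and 618, and with only those 6 libraries in the fit 2019. SMED30028104 had 60, 70.5 and 86.3 at 2dpa and 8.55 to 9.71 at 1dpa, a rise of 2.82 (SE 0.52, limma adjusted p = 0.000568). At 0dpa it was 2.76 to 4.0, below its 1dpa libraries. SMED30009415 had 51.2, 50.7 and 53.1 at 2dpa and 4.32 to 8.52 at 1dpa (2.87, SE 0.80, adjusted p = 0.024). SMED30028319 had 72.1, 86.6 and 31.6 at 2dpa and 0.825 to 10.6 at 1dpa (3.35, SE 0.93, adjusted p = 0.0242). For both, leaving out libraries of the 2 times one by one gave adjusted p up to 0.135 and 0.252. In RNAi tails SMED30028319 stayed at 0 to 7.26 at 2dpa with opa1 RNAi and 0 to 5.02 with combined RNAi. The difference from the control change was not called for either, with log2 differences of -3.40 (adjusted p = 1) and -4.79 (adjusted p = 0.466).

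The 3 falls named for the last day were in features whose mean was highest at 1dpa. SMED30014715 had 170, 8.22 and 21.4 at 2dpa and 195 to 427 at 1dpa (-3.20, SE 0.73, limma adjusted p = 0.00517), with a 0dpa mean of 70.1, and without the 2nd 2dpa library its adjusted p was 0.0895. SMED30031105 had 389, 154 and 62.3 at 2dpa and 465 to 961 at 1dpa (-2.12, SE 0.55, adjusted p = 0.014), and was not called without the 3rd 2dpa library (0.201) or the 2nd 1dpa library (0.0820). SMED30024583 had 27.6, 28.8 and 10.3 at 2dpa and 83.3 to 97.7 at 1dpa (-2.07, SE 0.62, adjusted p = 0.0394), and was not called without any one of the 6 libraries. None of the 3 differed between 2dpa and 0dpa by the test, with adjusted p of 0.39, 0.866 and 0.0566.

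The opa1 RNAi and combined RNAi tails share no library with the control tails, and the same comparison of times was made in each. All were tested in the same fit with a shared spread per feature. A feature with little spread is thus easier to call in each of them, and the calls are not independent. Of the 696 rises of control tails, 294 were called higher at 2dpa than at 0dpa in opa1 RNAi tails and 0 lower, beside 5.62% and 4.55% of all features tested. In combined RNAi tails 378 were called higher and 1 lower, beside 10.2% and 6.90%. The median log2 change of the 696 was 0.99 in opa1 RNAi tails and 1.14 in combined RNAi tails, and 96.1% and 97.6% of them were above 0. Of the 275 falls, 105 were called lower in opa1 RNAi tails and 159 in combined RNAi tails, with 0 called higher in either, and the medians were -0.74 and -0.90.

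The features were selected in control tails, which favours a larger control median, so the lists were also drawn the other way. Of the 495 features (2.39%) that rose over 2-fold in opa1 RNAi tails, 261 were called higher and 0 lower in control tails. Of all features tested, 9.70% and 8.33% were called so. The 495 had a median of 1.16 in control tails and 1.75 in opa1 RNAi tails. Of the 833 (4.03%) that rose over 2-fold in combined RNAi tails, 399 were called higher in control tails, with a control median of 0.99. Of the falls over 2-fold, 69 of 113 (0.546%) in opa1 RNAi tails and 156 of 290 (1.40%) in combined RNAi tails were called lower in control tails, and 1 of the 290, SMED30026190, was called higher. Across all 20681 features, as a description, the control change correlated with that in opa1 RNAi tails at r = 0.64 and with that in combined RNAi tails at r = 0.67. The number of calls in opa1 RNAi tails rests on single libraries, being 897 without the 2nd 0dpa library and 1052 and 1381 without the 3rd and the 1st 2dpa library, against 2103 with all. In combined RNAi tails it was 2137 without the 1st 2dpa library, against 3546 with all.

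**Figure D4:**
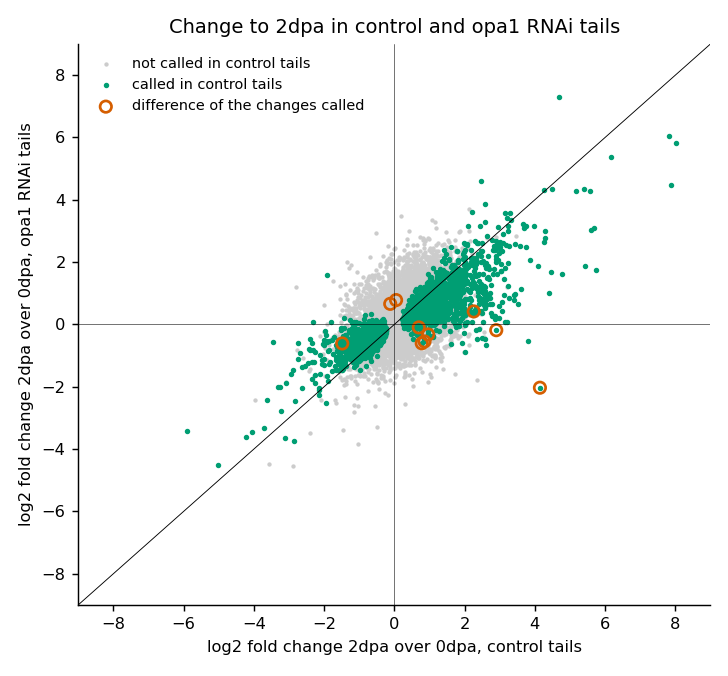
Each point is a feature, with its log2 fold change 2dpa over 0dpa in control tails on the horizontal axis and in opa1 RNAi tails on the vertical axis; green points were called in control tails, circles mark the 10 features whose changes differed, and the diagonal marks equal change. The correlation over all 20681 features is 0.64, and the circled feature farthest to the lower right is SMED30026190, at 4.14 in control and -2.03 in opa1 RNAi tails.

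The change to 2dpa differed between opa1 RNAi and control tails for 10 features by the interaction test of limma (0.0484% of those tested; 920 at an unadjusted p under 0.05), of which 7 had the lower change in opa1 RNAi tails (0.0338%) and 3 the higher (0.0145%). Between combined RNAi and control tails it differed for 1 feature (0.00484%; 1046 at an unadjusted p under 0.05). Neither unadjusted count lay much above what that threshold gives over the features tested when nothing differs. The feature called in both comparisons was SMED30026190. In control tails it had 44.7, 37.2 and 27.8 at 2dpa, against 0, 0 and 8.10 at 0dpa, and the change was 4.14 (SE 0.70, adjusted p = 6.2e-05). In opa1 RNAi tails it was 7.25 to 11.5 at 2dpa and 13.0 to 91.4 at 0dpa, and in combined RNAi tails 0 to 0.769 at 2dpa and 11.3 to 99.7 at 0dpa. Its level at 6hpa was 413 to 667 with opa1 RNAi and 297 to 578 with combined RNAi, against 5.06 to 25.4 in control tails.

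SMED30026445 had 205, 219 and 192 at 2dpa in control tails, against 47.6, 37.8 and 41.2 at 0dpa (2.26, SE 0.20, limma adjusted p = 1.55e-10). In opa1 RNAi tails it was 69.0 to 87.7 at 2dpa and 47.4 to 70.6 at 0dpa, and it had been 105 to 160 at 1dpa there. The difference of the changes was -1.84 (SE 0.28, adjusted p = 0.00165). SMED30034623 had 5291, 6434 and 6750 at 2dpa in control tails, against 2755, 3249 and 3475 at 0dpa (0.96, SE 0.14, adjusted p = 6.35e-06), and 1747 to 2246 at 2dpa in opa1 RNAi tails, against 2282 to 2927 at 0dpa.

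SMED30010375 and SMED30026531 went opposite ways in control and opa1 RNAi tails. The first had 2370, 2878 and 2822 at 2dpa in control tails, against 1345, 1302 and 1851 at 0dpa (0.86, limma adjusted p = 0.000156), and in opa1 RNAi tails 2449 to 3175 at 2dpa, against 3397 to 5364 at 0dpa (-0.55, adjusted p = 0.0207). Its levels at 2dpa overlapped between the RNAi groups, and its levels at 0dpa did not. The second had 2277, 2844 and 2647 at 2dpa in control tails, against 1328, 1466 and 1744 at 0dpa (0.78, adjusted p = 0.00047), and in opa1 RNAi tails 1350 to 1841 at 2dpa, against 1912 to 3240 at 0dpa (-0.61, adjusted p = 0.00989). Of all features called in both control and opa1 RNAi tails, 1 further feature, SMED30019959, was called in opposite directions, at 0.53 and -0.46. It is named because only 3 features did so.

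SMED30007040 had 412, 158 and 204 at 2dpa in control tails, against 14.9, 44.4 and 43.8 at 0dpa (2.90, SE 0.40, limma adjusted p = 1.96e-06). Its opa1 RNAi libraries were 21.1 to 57.8 at 2dpa and 29.8 to 56.2 at 0dpa. In control tails SMED30027156, described above, fell further, by 1.49 on the log2 scale, while in opa1 RNAi tails it was 796 to 833 at 2dpa, against 1151 to 1346 at 0dpa (-0.61). SMED30031551 had 361, 338 and 354 at 2dpa in control tails, against 188, 231 and 233 at 0dpa (0.69, SE 0.11, adjusted p = 3.05e-05), and in opa1 RNAi tails 249 to 268 at 2dpa, against 274 to 280 at 0dpa. SMED30007457 and SMED30035512 were the other way round. Neither passed the test in control tails, at -0.12 (adjusted p = 0.445) and 0.05 (adjusted p = 0.787), and both rose in opa1 RNAi tails, by 0.66 and 0.78.

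**Figure D5:**
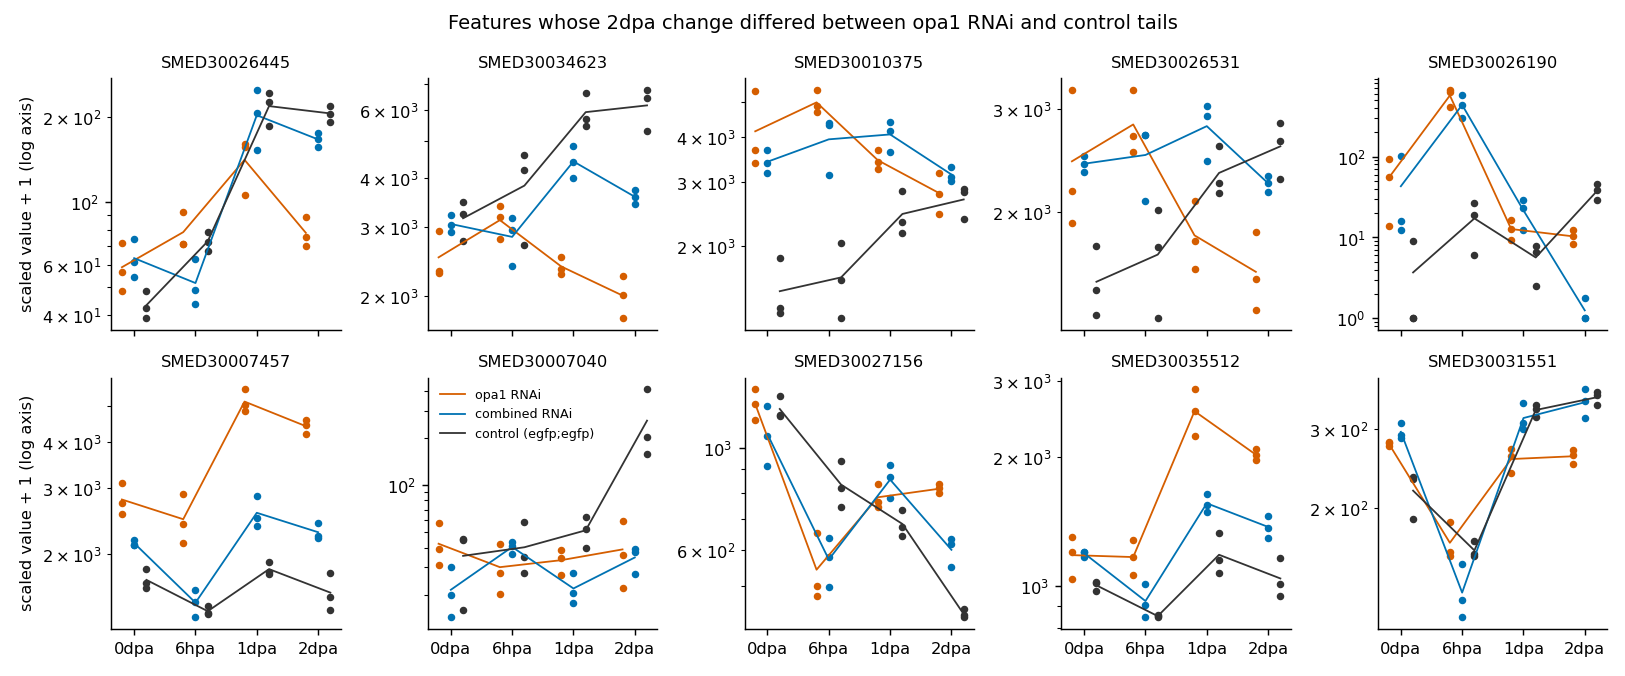
The 10 features whose change from 0dpa to 2dpa differed between opa1 RNAi and control tails are plotted by time of sampling, with the scaled value plus 1 on a logarithmic vertical axis; points are the 3 libraries of an RNAi group and time, and lines join their means. In SMED30026445 the control tails reach 192 to 219 at 2dpa and the opa1 RNAi tails 69.0 to 87.7.

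Whole bodies were a separate experiment, of 24 libraries whose deposited values are estimated counts, with 13081148 to 13274404 counts in control libraries at 1dpa and 11529725 to 13042439 at homo. There 208 of the 684 tail rises that could be tested were called higher at 1dpa than at homo and 8 lower, beside 9.83% and 8.89% of all features tested there. Of the 269 falls tested, 107 were called lower and 6 higher. The medians were 0.35 and -0.39, and the control changes of tails and bodies correlated over 20115 features at r = 0.31. The tissue, the time and the reference time all differ between these experiments, so sizes are set side by side only. Of the 62 rises over 8-fold in tails, 58 were tested in whole bodies, 30 were called higher and 0 lower, and their median was 1.26.

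SMED30004187, with its widely spread 2dpa tails, was 1.75 to 2.29 CPM in whole bodies at 1dpa and 0 in all 3 libraries at homo. In control tails it was 2.55 to 13.1 at 6hpa and 0.847 to 11.3 at 1dpa, and at 0dpa it was listed at 0 in all libraries of all 3 RNAi groups. In combined RNAi tails it was at 0 in all 3 libraries at 2dpa as well. SMED30022734 was 7.67 to 11 CPM at 1dpa and 0.0859 to 0.460 at homo, which is a log2 change of 4.77 (edgeR adjusted p = 2.05e-09). SMED30020397 was 6.68 to 11.7 at 1dpa and 0.0867 to 1.15 at homo (4.06, adjusted p = 2.17e-06). Besides SMED30009224, the fall with the largest opposite call was SMED30029780, with 74.9, 70.5 and 95.5 at 2dpa in tails, against 239, 188 and 232 at 0dpa (-1.44, limma adjusted p = 1.21e-07), and 2.02 in whole bodies (edgeR adjusted p = 2.1e-07).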

How the data were processed

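Total RNA of tails was made into libraries with an NEBNext kit, per the labels' protocols. The tail values are a signal: the authors deposited values already scaled between libraries, by a method that no source used here states. For whole bodies the authors deposited estimated counts, made with kallisto going by the table's name. The authors' deposited TPM table, which holds 27444 of the 36035 tail features (47.4% to 74.4% of the full TPM sum per library), served as an alternative and for levels per length. For 91.4% of the 12933 features above 0 in all 36 libraries of both tables, the signal equalled the TPM times a constant per feature and one per library (within 0.01 on the log2 scale in every library), so whole reads could not be recovered.

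Tail values were tested with limma 3.58.1 (R 4.3.3) with a mean-dependent prior on log2(value + 1), for features at 10 or more in at least 3 of 36 tail libraries, with 12 group means. Whole-body counts were rounded and tested with edgeR 4.0.16 (quasi-likelihood, TMM, its filter for low counts) over 24 libraries in 8 groups. All p-values were Benjamini-Hochberg adjusted over the features of a comparison, and called means under 0.05. Both procedures were run on data simulated from their own fitted models, which cannot test the assumptions of those models. SE means standard error, SD is taken over 3 libraries, and the lists over 2-fold hold called features past a log2 change of 1.

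Groups and replicate numbers come from the labels. Features were named by rule: the 8 largest rises and falls among called features whose groups do not overlap and whose log2 level averages 4 or more; the 4 with the highest scaled values over 2-fold in each direction; up to 4 at 0 in a whole group; the 3 smallest p in each direction; the 4 with the highest scaled values of all; up to 4 per interaction by p; and the 3 largest rises and falls from 1dpa to 2dpa. Others named were chosen after their values were seen. The samples, rules and lists were chosen with earlier results of these data known. Gene lists and markers could not be used, since 0 features were matched to a name. The whole-body TPM table was not used.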

Additional observations from a re-analysis of the deposited data

Results flagged for a closer look

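For 10 features the change from 0dpa to 2dpa differed between opa1 RNAi and control tails by limma's interaction test with Benjamini-Hochberg adjustment. The log2 differences, opa1 RNAi minus control, were -1.84 for SMED30026445, -1.29 for SMED30034623, -1.40 for SMED30010375, -1.39 for SMED30026531 and -6.18 for SMED30026190. They were -3.09 for SMED30007040, -0.79 for SMED30031551, 0.87 for SMED30027156, 0.78 for SMED30007457 and 0.73 for SMED30035512. For combined RNAi minus control tails, SMED30026190 differed by -8.62 (adjusted p = 6.04e-06). Some of its groups lie at or near 0, so the sizes of its differences depend on the pseudocount. With combined RNAi the difference was -10.09 at a pseudocount of 0.5 and -3.84 at 10.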

How the results depend on the processing

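The calls of control tails at 2dpa against 0dpa numbered 3729, between 3390 and 5152 under the other settings of scaling, filter, pseudocount and fit, 971 when counted over 2-fold only, and 2268 to 3605 without 1 library, the lowest without replicate 2 of 2dpa. The corresponding ranges without 1 library were 897 to 2225 for opa1 RNAi tails (2103 with all), 2137 to 3103 for combined RNAi tails (3546), 449 to 898 for 2dpa against 1dpa (1123) and 3028 to 4549 for whole bodies (4285). For the differences of the changes they were 5 to 17 with opa1 RNAi (10 with all; 5 without the control 2dpa replicate 1 and 17 without the opa1 RNAi 0dpa replicate 1) and 1 to 4 with combined RNAi (1 with all; 4 without the control 0dpa replicate 2 and 2 without the control 2dpa replicate 3). With other settings, the opa1 RNAi difference had 26 calls at a pseudocount of 10, 16 with equal sums without the highest-valued feature, 19 on the TPM table and 20 without the 6hpa libraries. The combined RNAi difference had 11, 3, 4, 7 and 8 calls at a pseudocount of 10, with no filter, on the TPM table, with only the libraries compared and without the 6hpa libraries. On the TPM table the combined RNAi tails had 5594 calls, and 2dpa against 1dpa had 2019 with only the libraries compared. The TPM table also holds fewer features, and the cause of neither number was tested. Over 2-fold, the 696 rises were 427 at a pseudocount of 10, 431 without replicate 2 of 2dpa, 1027 without the highest-valued feature and 1078 on the TPM table, and the 275 falls 158, 214, 179 and 63. SMED30013735 reversed on the TPM table, at 0.19 (adjusted p = 0.202) where the scaled values gave -0.17. The library constants between the tables average 0.845 at 2dpa and 1.08 at 0dpa, a log2 ratio of -0.36, which by construction shifts every fold change taken from the TPM values (median 0.35), and equal sums without the highest-valued feature gave a median of 0.19. With a replicate block the calls were 3707, 2088, 3525, 11, 1 and 1114 in the tail comparisons in the order above (2dpa against 1dpa last) and 4415 in whole bodies. Deviations of same-numbered 2dpa and 0dpa libraries correlated at 0.00, 0.09 and 0.06, so the numbers are not taken to pair them. In whole bodies DESeq2 1.42.0 called 4392. For single named features, 462 results under other settings kept direction and call, 21 lost the call and 1 reversed, and without 1 library 267 kept it and 45 lost it. The edgeR test on whole reads was not run, since whole reads could not be recovered. Precision is limited by 3 libraries a group and, at low values, by an unknown read depth.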
